A study of Mus musculus with 2031 samples.

Results

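The 6 genes described here, *Apoe*, *Clu*, *Abca1*, *Abcg1*, *Lcat* and *Lrp1*, build, load, remodel and take up the lipoproteins of the brain. They were chosen by name, and all 6 were found among the 49671 gene rows counted per cell. Single cells came from the cortex and hippocampus of C57BL/6J mice at postnatal day 56, with no treatment or transgene, and were sorted for ACSA-2 (the ATP1B2 protein of astrocytes) and against the oligodendrocyte antigen O1 and the dead-cell dye 7-AAD. Both cortical suspensions (1C and 2C) were each made from 1 animal of litter 1, and both hippocampal suspensions (1H and 2H) from 4 pooled animals each, of litters 2 and 3, so effects of brain area, litter and pooling cannot be told apart. RNA was read by Smart-seq2, a full-length method without molecular identifiers, to between 600758 and 3238215 gene counts per cell (median 1458411). By the study's own clusters, 1781 of the cells with counts and a listed type here fell in 5 astrocyte subtypes, AST1 to AST5, and the same gate let through 30 endothelial, 11 microglial, 9 oligodendrocytic and 17 neuronal cells as well as mural cells, of which 1C, 2C, 1H and 2H gave 27, 12, 48 and 47.

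Neurons and glia cannot draw on the lipoproteins of blood, so cholesterol and phospholipid move between brain cells on particles made within the brain. Apolipoprotein E, encoded by *Apoe*, is the main protein of those particles, and clusterin, or apolipoprotein J, encoded by *Clu*, is another. The transporters ABCA1 and ABCG1 export cholesterol and phospholipid onto them, LCAT esterifies the cholesterol they carry, and LRP1 is an endocytic receptor for apolipoprotein E. In the adult brain the first 2 proteins are known chiefly as astrocyte products.

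On the GRCm38 build, *Apoe* (ENSMUSG00000002985.16) lies on the minus strand of chromosome 7 from 19696109 to 19699188, *Clu* (ENSMUSG00000022037.14) on the plus strand of chromosome 14 from 65968483 to 65981547, and *Lcat* (ENSMUSG00000035237.7) on the minus strand of chromosome 8 from 105939551 to 105943382. *Abca1* (ENSMUSG00000015243.4) lies on the minus strand of chromosome 4 from 53030787 to 53159895, *Abcg1* (ENSMUSG00000024030.6) on the plus strand of chromosome 17 from 31057675 to 31117988, and *Lrp1* (ENSMUSG00000040249.15) on the minus strand of chromosome 10 from 127538161 to 127621148. Promoters were held for 4 of the 6 genes in the RefSeq table (GRCm38.p6), *Clu* and *Abcg1* having no entry. The 250 bases before the start site are shown 5′ to 3′ for *Apoe* and *Lcat*, which stood high in astrocytes per kilobase of exon, and for *Abca1*, which stood low there. Capitals mark matches on either strand to CACGTG (the E-box), GGGCGG (the GC box), CCAAT (the CCAAT box), TATAAA (the TATA box) and AGGTCA (a nuclear receptor half-site). No match overlapped another.
Apoe, first of 3 starts, chr7:19699189-19699438, minus strand: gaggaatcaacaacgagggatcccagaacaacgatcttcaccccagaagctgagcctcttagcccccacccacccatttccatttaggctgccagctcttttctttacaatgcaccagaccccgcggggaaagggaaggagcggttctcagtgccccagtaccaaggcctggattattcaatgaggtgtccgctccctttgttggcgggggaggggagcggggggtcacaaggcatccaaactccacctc
Lcat, chr8:105943403-105943652, minus strand: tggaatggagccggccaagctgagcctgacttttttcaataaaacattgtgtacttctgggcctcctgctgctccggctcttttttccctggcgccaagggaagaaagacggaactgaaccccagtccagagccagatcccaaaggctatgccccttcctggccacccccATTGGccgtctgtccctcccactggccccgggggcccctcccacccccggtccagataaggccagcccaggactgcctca
Abca1, chr4:53159896-53160145, minus strand: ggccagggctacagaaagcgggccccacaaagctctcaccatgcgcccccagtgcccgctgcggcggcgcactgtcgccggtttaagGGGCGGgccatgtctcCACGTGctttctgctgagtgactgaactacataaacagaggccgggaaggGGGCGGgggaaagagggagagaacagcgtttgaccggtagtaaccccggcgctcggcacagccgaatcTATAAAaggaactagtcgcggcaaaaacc
The *Apoe* window held none of the 5 motifs and the *Lcat* window only a CCAAT box, 80 bases before the start and read on the strand opposite to the one shown. That of *Abca1* held an upstream GC box followed by an E-box, a further GC box 97 bases before the start and a TATA box 29 bases before it. Over all 32851 promoters of the table, windows of this length held the CCAAT box in 33.8%, the GC box in 32.7%, AGGTCA in 14.02%, the TATA box in 12.4% and the E-box in 6.02%.

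Levels below are counts per 1000000 gene counts (CPM) of the cells of 1 type summed within 1 suspension, and a mean is given ± SD over suspensions. Because longer transcripts give more counts, genes were compared with each other per kilobase of exon. On that scale *Apoe* stood highest in astrocytes at 15222 CPM per kb and *Clu* followed at 4386, with *Lcat* at 903. *Lrp1* (9.83) and *Abca1* (9.52) lay close together, and *Abcg1* was lowest at 0.221. All 10 astrocyte marker genes were read in each of the 5 subtypes. Their summed level was 33261 to 50358 CPM in the subtype sums, above the 115 to 8781 CPM seen in the other cell types. The study named types by known marker genes in these same counts. *Atp1b2*, among the 10, encodes the protein used for sorting, so these levels are no independent check of the label. Of 2030 cells with counts, 33 were absent from the type list and 15 had no type, and these 48 entered no comparison.

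The first question was how far each gene was particular to astrocytes within the gate. *Apoe* and *Lcat* were lower than in astrocytes in nearly all other cell types and *Clu* in mural and endothelial cells, whereas *Abcg1* was higher in endothelial, microglial and oligodendrocytic cells, and *Lrp1* was also read in neurons, mural cells and microglia. Over the 5 other cell types, 15 differences from astrocytes passed the test, of which 12 were lower and 3 higher (edgeR quasi-likelihood test on the sums, adjusted p under 0.05). Of the 6 members, 3 were called in mural cells, where 13.5% of all genes tested were called, 4 in endothelial cells (background 17.6%), 3 in microglial cells (40.3%), 3 in oligodendrocytic cells (1.18%) and 2 in neuronal cells (0.293%). Cell types were found by clustering these same counts, so these tests describe the clusters and are not independent evidence of a difference. With the suspension as a replicate block, which pairs types taken from the same animals, 9 calls were left, and leaving out a suspension left 1 (without 1C, 1H or 2H) or 9 (without 2C). The call that stood through every one of these was *Lcat* in microglial cells.

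*Apoe*, the principal lipid carrier of the brain, was read in every astrocyte. Its astrocyte level was 26911 CPM in 1C, 27347 in 2C, 38269 in 1H and 37649 in 2H. No sum of another cell type reached these, the highest being 11290 in the oligodendrocytic cells of 1C and 10190 in the microglial cells of 2C. Both of those sums were also high in astrocyte markers, at 7300 CPM against 1191 and 1275 in the other oligodendrocytic sums and 8781 against 115 to 542 in the other microglial sums, and the part of these markers in the result was not tested. Without both sums, which was tried after the data were seen, *Apoe* was called in all 5 other cell types and *Clu* also in microglial cells, while the oligodendrocytic calls for *Abcg1* and *Lrp1* were lost. The remaining oligodendrocytic sums held 3095 (1H) and 2984 (2H) CPM. Endothelial *Apoe* ran from 711 CPM in 1C through 1076 in 2C and 1371 in 1H to 1855 in 2H. Mural cells held 294.8 (1C), 183.5 (2C), 732 (1H) and 440 (2H) CPM, and a single mural cell carried 46.01% of the mural *Apoe* counts. Neuronal cells gave 2.25 (1H) and 1.76 (2H) CPM, from 35 and 25 counts. Against astrocytes the fitted log2 fold change was -6.90 ± 1.27 (SE) in mural (adjusted p = 0.0101), -5.66 ± 1.20 in endothelial (0.0235), -5.08 ± 1.19 in microglial (0.0132) and -14.98 ± 2.38 in neuronal cells (0.0116), and -3.72 ± 1.24 in oligodendrocytic cells, which did not pass (0.0728). The median gene differed by -1.15, -2.39, -8.66, -2.20 and -7.21 in the same order of cell types. In microglial and oligodendrocytic cells *Apoe* thus fell less than the median gene. In the order of mean levels, oligodendrocytic, microglial, endothelial and mural cells each overlapped their neighbour, while the astrocytes above and the neurons below them did not.

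*Clu*, the secreted chaperone clusterin, was read in 1779 of 1781 astrocytes, at 13167 CPM in 1C, 13538 in 2C, 16777 in 1H and 16816 in 2H. Mural cells held 23.03 CPM in 1C and 0.203 to 0.616 in the other 3 suspensions, and the 1C value came chiefly from the mural cell that held 87.4% of all mural *Clu* counts. In endothelial cells 1 cell of 2H held 99.3% of the counts, so that the suspensions gave 0.633 (1C), 0 (2C), 0.543 (1H) and 136.6 (2H) CPM. Microglial sums were as uneven, at 0.446 (1C), 5672 (2C), 344.04 (1H) and 0.819 (2H), with 69.4% of the counts in 1 cell. Oligodendrocytic cells stood at 1717 (1C), 387 (1H) and 87.9 (2H) CPM and neuronal cells at 1.87 (1H) and 0.705 (2H). The log2 fold change was -12.99 ± 3.50 in mural cells (adjusted p = 0.0331) and -9.06 ± 2.98 in endothelial cells (0.0447). It was -5.90 ± 2.75 in microglial (0.0897) and -6.13 ± 3.01 in oligodendrocytic cells (0.134), neither of which passed. Both falls were smaller than that of the median gene in the same cells. The mural call was lost in 1 of 9 other settings, the endothelial call in 4 of 9, and both on leaving out any 1 suspension.

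*Lcat*, the esterifying enzyme, was at or close to 0 outside astrocytes. Astrocytes held 998 (1C), 1027 (2C), 1567 (1H) and 1255 (2H) CPM, and 83.2% of them had a count. No count was read in any of the 30 endothelial, 11 microglial or 9 oligodendrocytic cells. If 3 counts over the group are taken as the limit that a count of 0 allows, astrocytes stood 17280-fold, 6899-fold and 6646-fold higher, respectively. That limit covers only the counting of reads in the cells at hand. It is no lower bound for the cell type, because 1 further cell with counts could lower it greatly. Such a count of 0 still allows a share of cells with a count of up to 10%, 27.3% and 33.3%. Mural cells gave 6 counts in all, 1 in each of 6 cells, and neuronal cells 5. With every cell thinned to 50000 counts, no mural or neuronal cell kept a *Lcat* count, against 81.8% of astrocytes. *Lcat* was the only member called lower in all 5 other cell types, with adjusted p from 0.000495 (microglial) to 0.0385 (neuronal). The neuronal call was lost in 3 of 9 other settings and on leaving out any 1 suspension. Each of the mural, endothelial and oligodendrocytic calls was lost in 3 of the 4 fits with a suspension left out.

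*Abca1*, which loads lipid onto new particles, was read in 33.1% of astrocytes (26.7% after thinning) at a steady summed level of 103.02 (1C), 92.9 (2C), 93.6 (1H) and 105.1 (2H) CPM. Microglial sums spread from 0 (1H) and 3.71 (1C) to 227.8 (2C) and 315.7 (2H) CPM, on either side of the astrocyte range. Endothelial cells held 117.1 CPM in 1C, from 2 of 9 cells, and 0 to 4.03 elsewhere, and no oligodendrocytic sum exceeded 2.85 CPM. Only 1 mural and 1 neuronal cell had a count. *Abca1* was not called by edgeR in any cell type against astrocytes (adjusted p from 0.114 in mural to 0.792 in microglial cells), but DESeq2 called it lower in mural, neuronal and oligodendrocytic cells and the fit on thinned cells in mural cells.

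*Abcg1*, which also exports lipid, was nearly absent from astrocytes. Only 10 of 1781 astrocytes had a count, the sums being 1.41 (1C), 1.30 (2C), 1.18 (1H) and 2.56 (2H) CPM. Oligodendrocytic cells stood highest, at 702 (1C), 827 (1H) and 349.1 (2H) CPM, and neuronal cells next at 345.4 (1H) and 338.4 (2H). These ranges did not overlap, but the lowest oligodendrocytic value lay just above the highest neuronal one. Microglial sums held 98.3 (1C), 12.4 (2C), 299.1 (1H) and 59.2 (2H) CPM, and endothelial sums 133.7 (1C), 11.7 (2C), 1.30 (1H) and 152.2 (2H). Mural cells held 14.7 (1C), 7.98 (2C), 72.96 (1H) and 91.7 (2H) CPM. Every other cell type had a larger share of cells with a count than the 0.561% of astrocytes, from 15.7% of mural cells through 26.7% of endothelial, 63.6% of microglial and 64.7% of neuronal cells to 77.8% of oligodendrocytic cells. The log2 fold change against astrocytes was 7.39 ± 1.71 in oligodendrocytic (adjusted p = 0.0395), 4.70 ± 1.49 in endothelial (0.0407) and 4.42 ± 1.47 in microglial cells (0.0295). It was 6.12 ± 1.73 in neuronal (0.162) and 3.90 ± 1.46 in mural cells (0.0838), which did not pass. All 3 calls were lost with the suspension as a replicate block, on leaving out any 1 suspension, and with no filter on low counts.

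*Lrp1*, the uptake receptor, was read in most of the cell types. Astrocyte sums stood at 158.3 (1C), 166.4 (2C), 166.7 (1H) and 204.99 (2H) CPM with a count in 50.8% of cells. Neuronal cells held 360.6 (1H) and 393.4 (2H) CPM, above every other sum of a cell type, and 14 of 17 had a count. Mural sums were 286.7 (1C), 15.1 (2C), 265.9 (1H) and 235.6 (2H), and microglial sums ranged from 79.7 to 278.02. Endothelial cells stayed at or below 58.8 CPM. No count was read in the 9 oligodendrocytic cells. The limit of 3 counts put astrocytes 955-fold higher, again only for the reads of these cells. A count of 0 there still allows a share of cells with a count of up to 33.3%, against 50.8% of astrocytes. The oligodendrocytic difference was the only call for *Lrp1* (adjusted p = 0.0178). That call was lost with the suspension as a replicate block and on leaving out 1C, 1H or 2H.

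**Figure D1:**
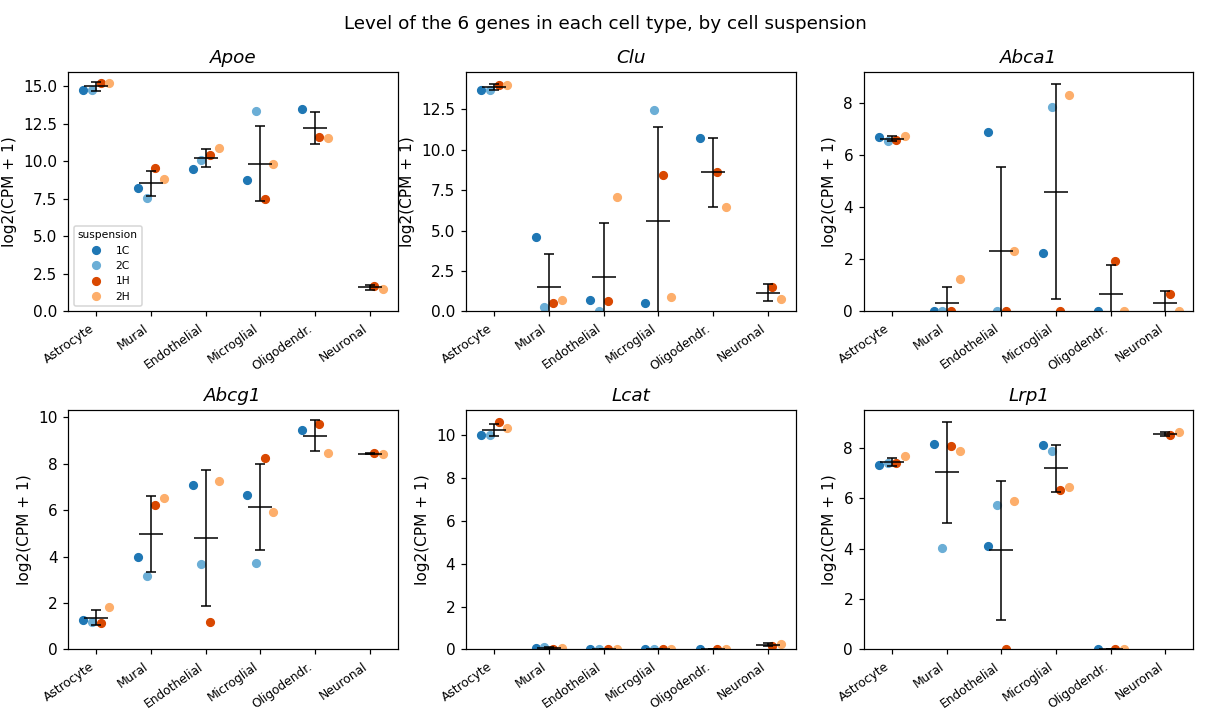
Level of each of the 6 genes, as log2(CPM + 1), in the summed cells of each cell type (x axis), with 1 point per suspension (1C and 2C cortical, 1H and 2H hippocampal) and black bars for the mean and SD of the plotted values. *Apoe*, *Clu* and *Lcat* are highest in astrocytes, *Abcg1* is lowest there, and *Lcat* lies at or near 0 in every other type.

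The next comparison asked whether the 5 astrocyte subtypes differed in these genes. *Apoe* and *Clu* were highest in AST1, and both were lower in AST2 than in AST1 or AST3. *Lcat*, *Apoe* and *Clu* were lower in AST4, the subtype found almost wholly in hippocampus, and *Lcat* and *Abca1* were lower in AST5. Other measures moved with these subtypes: the summed astrocyte markers were 33261 to 36047 CPM in AST4 against 41281 to 50358 in AST1 to AST3, and mural markers 273.1 to 610 against 1.47 to 288.1. Among the first 3, astrocyte markers were lower in AST2 (41281 to 45385 CPM) than in AST1 (47620 to 50235) or AST3 (47630 to 50358). In these 3 the summed endothelial list was 1561 to 1993 CPM in AST1, 2137 to 2351 in AST3 and 2662 to 3025 in AST2, without overlap, the reverse of the order of *Apoe* and *Clu*, with *Cdh5* at 0 in AST1 and AST2 and *Tek* in AST2 and AST3, and it was lower in AST4 (262.2 to 350.5) and AST5 (127.9 to 528.2, with 6 of the 8 genes at 0). The AST5 sum of that list came from *Slco1c1* and *Slc2a1* alone, and what each gene gave to the sums of AST1 to AST3 was not separated. In AST5 astrocyte markers were 39570 to 47028 CPM, oligodendrocyte markers were 665 to 1951 CPM against 194.3 to 679 in the other subtypes, and the median AST5 cell had 1405 to 1831 genes against 1801 to 2628. Their part in the results was not tested. The level of each subtype was compared with that of the other 4, averaged with weights by cell number, and 10 member differences passed: 2 in AST1, where 0.0384% of all genes were called, 1 in AST2 (background 0.0548%), 3 in AST4 (0.636%) and 4 in AST5 (17%). None was called in AST3, where the edgeR test called 0% of genes (1.89% were below 0.05 before adjustment, and DESeq2 called 727 genes). Against the other subtypes *Apoe* was higher by 0.71 ± 0.07 (SE) on the log2 scale in AST1 (adjusted p = 0.000938) and *Clu* by 0.90 ± 0.11 (0.00598), and *Apoe* differed by -0.66 ± 0.07 in AST2 (0.00572). The *Apoe* call was lost in AST1 with limma or without 2C or 2H, and in AST2 with DESeq2 or its size factors, limma, or without 1C, 2C or 2H. That of *Clu* in AST1 was lost with total counts only, limma, or without 1H or 2H. The suspension as a replicate block left the count at 10, and leaving out 2H brought it to 4. Subtypes were clustered on these counts as well, so the tests again describe the clusters.

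*Apoe* in AST1 was 37140 (1C), 40928 (2C), 42199 (1H) and 42013 (2H) CPM. In AST3 it was 30812, 30937, 31829 and 33133, and in AST2 21350, 22403, 26775 and 27005, in the same order of suspensions. The 3 subtypes therefore did not overlap, whatever the suspension, and within each suspension AST1 was 1.56 to 1.83 times AST2. AST4 held 26353 (1H) and 26295 (2H) CPM, within the range of AST2, and AST5 31459 (1C), 32643 (2C) and 29730 (1H), overlapping AST3. Between AST1 and AST2, with both areas weighted equally, the log2 difference was 0.90 ± 0.06 (SE, adjusted p = 0.000684), and between AST2 and AST3 -0.50 ± 0.06 (0.00732). Over the other settings tried these ran from 0.73 to 0.96 and from -0.56 to -0.38, ranges wider than the SE. The AST1 to AST3 difference of 0.39 ± 0.06 did not pass (0.0923). Under the replicate block the AST2 to AST3 difference no longer passed (-0.51, adjusted p = 0.0534).

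*Clu* followed the same order of AST1, AST3 and AST2 in every suspension, but its AST3 level differed between the areas. AST1 held 17053 (1C), 19132 (2C), 19803 (1H) and 20569 (2H) CPM and AST2 10540, 10978, 9944 and 9690. AST3 split by area, at 15425 and 16050 in the cortical but 10575 and 11592 in the hippocampal suspensions, which brought its range to overlap that of AST2. AST4 was lowest, at 8315 (1H) and 8260 (2H), and AST5 spread from 10321 (2C) through 14396 (1C) to 17632 (1H). *Clu* differed by 1.05 ± 0.06 on the log2 scale between AST1 and AST2 (adjusted p = 0.000653), by 0.57 ± 0.06 between AST1 and AST3 (0.0249) and by -0.48 ± 0.06 between AST2 and AST3 (0.0109). Over the other settings tried these ran from 0.89 to 1.10, from 0.53 to 0.61 and from -0.52 to -0.36. Of the 6 members, 2 were called between AST1 and AST2 (background 3.67%), 1 between AST1 and AST3 (0.0869%) and 2 between AST2 and AST3 (2.96%). All 5 calls were lost without 1C or without 2C, when no gene at all was called in these 3 comparisons, and with limma only those between AST1 and AST2 were left; that of *Clu* between AST1 and AST3 was also lost without 1H or without 2H, although the fitted differences stayed between 0.47 and 1.09 in size with any suspension left out.

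Plates, each of which held cells of 1 suspension, gave a second view of these orders in the same cells, and are not further replicates. In plates with at least 3 cells of both subtypes, the median *Apoe* of AST1 cells was above that of AST2 cells in 16 of 16 cortical and 7 of 7 hippocampal plates, and so was that of *Clu*. AST1 stood above AST3 for *Apoe* in 14 of 16 cortical and 15 of 15 hippocampal plates and for *Clu* in 11 of 16 and 15 of 15. AST3 stood above AST2 for *Apoe* in 16 of 16 cortical and 6 of 7 hippocampal plates and for *Clu* in 16 of 16 and 5 of 7. Among plates with at least 5 AST1 cells levels differed, the AST1 median of *Apoe* running from 31287 to 42061 CPM over 5 plates of 1C and from 33932 to 53308 over 7 plates of 2C.

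*Lcat* overlapped between the first 3 subtypes and was lower in the last 2. Its sums ran from 1143 to 1792 CPM in AST1, 1091 to 1426 in AST2 and 869 to 1370 in AST3. Within each suspension AST1 was above AST3, by 1.31 to 1.49 times, and above AST2, by 1.02 to 1.39 times, but neither difference passed (log2 difference from AST3 0.48 ± 0.11, adjusted p = 0.376, and from AST2 0.36 ± 0.11, adjusted p = 0.178). AST4 held 538 (1H) and 319.4 (2H) CPM, and AST5 188 (1C), 145 (2C) and 872 (1H), so AST4 lay below every sum of the first 3 subtypes and AST5 did so in its cortical sums. The share of cells with a count was 84.9 to 85.4% in AST1 to AST3, 58.2% in AST4 and 42.3% in AST5. Against the other subtypes the log2 difference was -2.18 ± 0.40 in AST4 (adjusted p = 0.0200) and -2.40 ± 0.33 in AST5 (0.000163). The AST4 call was lost with total counts only or without 1C or 2H. In plates the *Lcat* median of AST1 was above that of AST4 in 14 of 14 hippocampal plates, but above that of AST2 in only 7 of 16 cortical and 2 of 7 hippocampal plates and above that of AST3 in 12 of 16 and 11 of 15.

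*Abca1* had no count in the 24 AST5 cells of the 3 sums tested, and was called lower (adjusted p = 9.45e-06 against the other subtypes). The 2 AST5 cells of 2H were too few for a sum, and 1 of them held 416 counts. Over all 26 AST5 cells pooled, which was tried after the data were seen, *Abca1* was then 12.2 CPM against 106.05 over all AST1 cells, a ratio of 8.67 that rests on that 1 cell. The other 4 subtypes held counts in 29.98 to 37.2% of cells. Single sums stood out, at 545 CPM in the 10 AST2 cells of 1H and 222.8 CPM in AST1 of 2C, whereas the remaining sums of AST1 to AST4 lay between 67.5 and 136.3 CPM. *Lrp1* was 178.5 to 241.6 CPM in AST1, 176.7 to 352.96 in AST2, 121.8 to 177.04 in AST3, 100.5 and 123.2 in AST4 and 0 to 131.8 in AST5, and was not called in any subtype. *Abcg1* was read in 6 of 91 AST4 cells, of which 1 gave the 11.6 CPM of 1H, 4 the 22.5 CPM of 2H, and 1 was a cell of 1C that is in no sum and held 30.7% of the AST4 counts of the gene, and in 2 AST1, 1 AST2 and 1 AST3 cells, where no sum exceeded 1.58 CPM. The AST4 difference did not pass (adjusted p = 0.154), but it was called with DESeq2, with limma and with the other subtypes weighted equally.

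*Apoe* and *Clu* were also called lower in AST5 (log2 difference -0.66 ± 0.08 for *Apoe*, adjusted p = 8.13e-05, and -0.66 ± 0.13 for *Clu*, 0.00355), but with scaling by total counts alone the differences became 0.01 and 0.03 and neither was called. With limma neither was called either, nor was *Clu* with DESeq2. Their CPM in AST5 overlapped that in AST3. The median gene differed by -4.55 in AST5 on this log2 scale, and 17% of genes were called. In AST4 the calls for *Apoe* (-0.61 ± 0.10, adjusted p = 0.00867) and *Clu* (-1.02 ± 0.17, 0.00747) kept their sign under every alternative tried. *Apoe* was not called there with DESeq2, limma, no filter on low counts or without 2H, nor *Clu* with total counts only or without 1H or 2H.

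**Figure D2:**
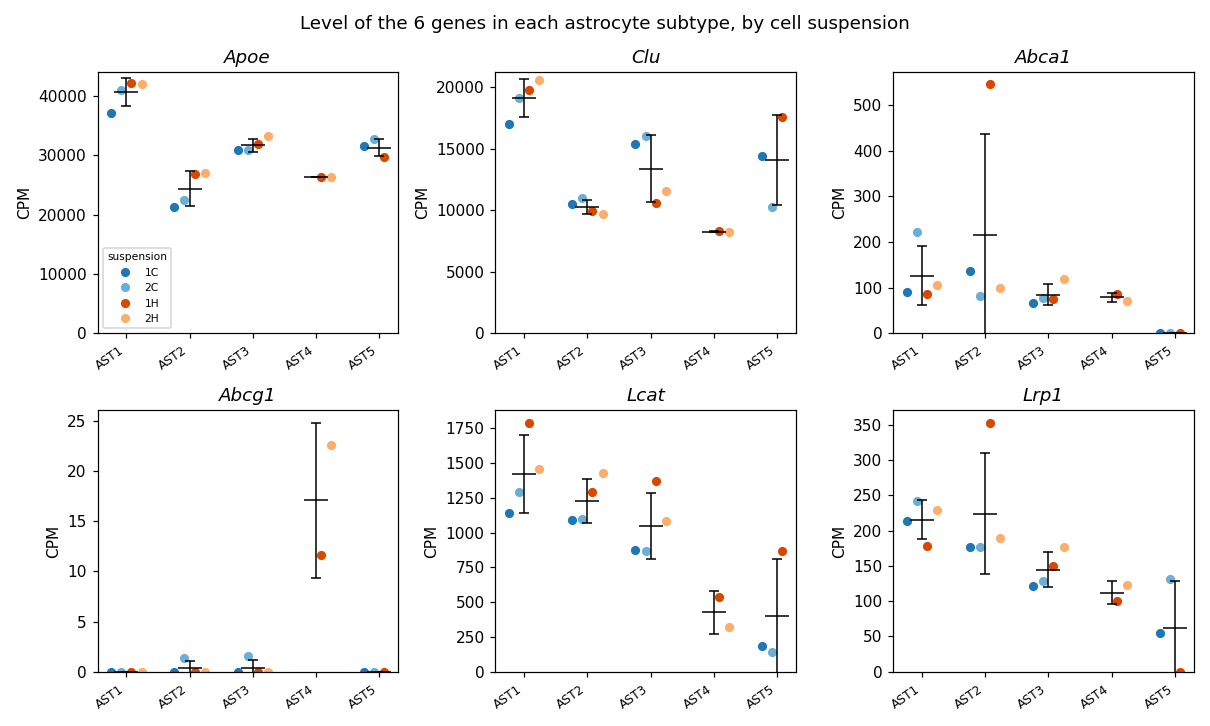
CPM of each gene in the summed cells of the 5 astrocyte subtypes (x axis), 1 point per suspension, with black bars for the mean and SD, cut at 0. *Apoe* does not overlap between AST1, AST3 and AST2, *Clu* of AST3 splits by area, and *Lcat* is lowest in AST4 and AST5.

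The third comparison was that of hippocampus with cortex. With all astrocytes summed, *Apoe*, *Clu*, *Lcat* and *Lrp1* were each higher in both hippocampal suspensions than in both cortical ones, by ratios of mean CPM of 1.40, 1.26, 1.39 and 1.14, and *Abca1* and *Abcg1* overlapped (1.01 and 1.38). The *Lrp1* values of 2C and 1H lay within 1 CPM of each other. That is 4 of 6 members without overlap, where 46% of all genes tested had suspensions that did not overlap and 21.9% were higher in hippocampus. No member was called, and neither was any other gene (0% of 19160 by edgeR with 2 suspensions against 2). Before adjustment 2609 genes were below 0.05, and DESeq2 called 1858 genes, limma 506 and the fit on cells thinned to an equal total 1.73% of those it tested. The log2 difference was 0.51 ± 0.03 for *Apoe* (adjusted p = 0.135), 0.36 ± 0.03 for *Clu* (0.155) and 0.50 ± 0.12 for *Lcat* (0.248). Among them DESeq2 called these 3 members, the fit on thinned cells *Apoe* and *Clu*, and limma *Apoe*.

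The subtypes were unequally shared between the areas. AST1 made up 12.4% (1C) and 11.02% (2C) of cortical but 68.96% (1H) and 64.02% (2H) of hippocampal astrocytes, and AST2 52.1% and 56.7% of cortical but 2.54% and 5.14% of hippocampal ones. With AST1, AST2 and AST3 given equal weight in every suspension, the hippocampus to cortex ratio was 1.11 for *Apoe* and 0.921 for *Clu*, so that for *Clu* its direction turned. For *Lcat* it was 1.32, for *Lrp1* 1.20 and for *Abca1* 1.53, the areas overlapping for *Abca1*, whose ratio was 1.01 over all astrocytes and 0.620 in AST1, 2.96 in AST2 and 1.36 in AST3. Single sums carried these *Abca1* ratios. AST2 held 545 CPM in the 10 cells of 1H, against 99.2 in 2H, 136.3 in 1C and 81.8 in 2C. AST1 held 222.8 CPM in 2C, against 90.2 in 1C, 87.4 in 1H and 106.6 in 2H.

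Within a subtype, *Apoe* was 1.08 times its cortical level in hippocampal AST1, 1.23 times in AST2 and 1.05 times in AST3. *Clu* was 1.12 times as high in AST1, 0.912 times in AST2 and 0.704 times in AST3. *Lcat* was 1.34, 1.24 and 1.41 times as high. For each of these 3 genes the suspensions did not overlap between areas in AST1, AST2 or AST3. For *Lrp1* they overlapped in AST1 (ratio 0.893) but not in AST2 (1.53) or AST3 (1.31), which makes 3 members without overlap in AST1 (background 38.4% of all genes), 4 in AST2 (46.8%) and 4 in AST3 (35.5%). By direction, 3 members were higher in hippocampus in AST1 (26%) and none lower (12.4%), 3 higher (7.62%) and 1 lower (39.1%) in AST2, and 3 higher (12.3%) and 1 lower (23.2%) in AST3. No member passed the edgeR test within AST1 (0.0109% of genes called), AST2 (4.16%) or AST3 (0.0272%). Under other settings *Apoe* was called in AST2 with DESeq2, its size factors or total counts only, *Clu* in AST3 with DESeq2, and *Lrp1* in AST2 without 2H. In AST3 the hippocampal *Clu* was lower by 0.45 ± 0.09 on the log2 scale (adjusted p = 0.471). Whether the area difference itself varied among the 3 subtypes was tested by the interaction terms, and no member was called (background 1.81%), *Clu* coming nearest (adjusted p = 0.0848). With scaling by total counts alone *Clu* passed that test. Hippocampal AST2 rested on 10 and 22 cells.

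Mural cells, the contractile cells of the vessel wall, allowed the same comparison with 27 and 12 cortical and 48 and 47 hippocampal cells. *Abcg1* averaged 11.4 ± 4.79 CPM in cortex and 82.3 ± 13.3 in hippocampus (SD, n = 2 each), and *Apoe* 239.1 ± 78.7 and 586 ± 205.9, with no overlap of suspensions for either. A single cell of 1H carried 46.01% of the mural *Apoe* counts, and without it, which was tried after the data were seen, 1H fell from 732 to 134.7 CPM, below both cortical sums, so that the *Apoe* order of the areas rested on that cell. In 2H as well the highest mural cell held 14546 CPM of *Apoe* against an upper quartile of 25.1. The median mural cell went the other way, at 2.44 (1C) and 1.68 (2C) against 1.18 (1H) and 1.09 (2H) CPM. *Abcg1* without its own highest cell was 46.5 CPM in 1H, still above both cortical sums. Each cortical sum, however, rested on 2 cells with an *Abcg1* count, against 7 in 1H and 10 in 2H. The share of mural cells with a count overlapped between the areas, at 7.41% (1C) and 16.7% (2C) against 14.6% (1H) and 21.3% (2H). The log2 differences of 2.97 ± 1.32 and 1.41 ± 0.46 did not pass (adjusted p = 0.710 and 0.535), nor did any of the 4 members tested. No gene was called in this comparison by edgeR (0% of 10614, with 961 below 0.05 before adjustment), and DESeq2 called 1373, both of these members among them. Suspensions did not overlap in 37.2% of all genes tested, higher in hippocampus in 24.6% and lower in 12.5%.

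**Figure D3:**
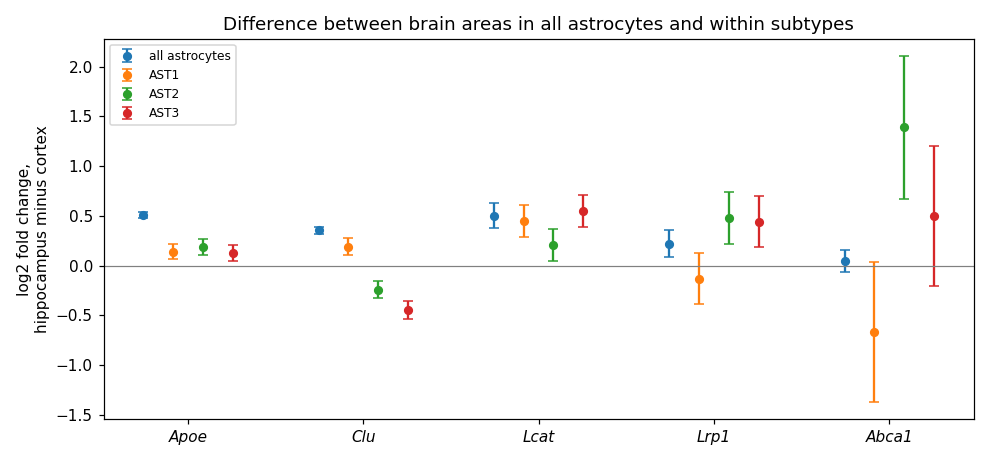
Fitted log2 fold change, hippocampus minus cortex, of 5 of the genes (x axis) in all astrocytes summed and within AST1, AST2 and AST3, with bars of 1 SE. *Apoe* is nearer 0 within each subtype than in all astrocytes, *Clu* is above 0 in AST1 and below it in AST2 and AST3, and *Lcat* is above 0 in all 4. *Abcg1* is left out because most of its astrocyte sums were at 0.

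Across single cells the genes differed greatly in spread. Within sets of cells of 1 subtype and 1 suspension with at least 40 cells, 12 sets in all, the coefficient of variation of CPM was 0.233 to 0.368 for *Apoe* and 0.351 to 0.532 for *Clu*. It was 0.810 to 1.28 for *Lcat*, 1.49 to 1.99 for *Lrp1* and 1.90 to 3.13 for *Abca1*. Accordingly 1366 of 1781 astrocytes were needed to reach 90% of all astrocyte *Apoe* counts, but only 971 for *Lcat*, 469 for *Lrp1* and 6 for *Abcg1*.

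*Apoe* and *Clu* rose and fell together from cell to cell. Spearman's correlation between them lay between 0.273 and 0.644 in the 12 sets (median 0.459), positive in every one. The median correlation of the other pairs among *Apoe*, *Clu*, *Lcat*, *Abca1* and *Lrp1* was between -0.03 and 0.12, and each of them had sets on both sides of 0. *Lcat*, *Lrp1* and *Abca1* had a count in only 83.2%, 50.8% and 33.1% of astrocytes, and the part of this in the coefficients was not tested. The same coefficient of *Apoe* with the cell's total count was between -0.04 and 0.20. The genes of a cell share its library and its total, which sets the scale of CPM, so these values are a description.

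Over the 17 subtype sums, the genes whose log2(CPM + 1) was most like that of *Apoe*, among 8722 genes with a mean of at least 10 CPM, were *Cst3* (Pearson's r = 0.83), *Clu* (0.75) and *Sparcl1* (0.75). For *Clu* they included *Gm14569* (0.77) and *Apoe* (0.75), for *Lcat* *Daam2* (0.94), *Sema6d* (0.94) and *Ghr* (0.93), for *Abca1* *Rufy2* (0.99), *Timm44* (0.99) and *Zdhhc17* (0.99), and for *Lrp1* *Cdipt* (0.98), *Tex261* (0.98) and *Jtb* (0.97). The sums share suspensions. All 3 AST5 sums were at 0 for *Abca1*, and 1 of them for *Lrp1*.

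**Figure D4:**
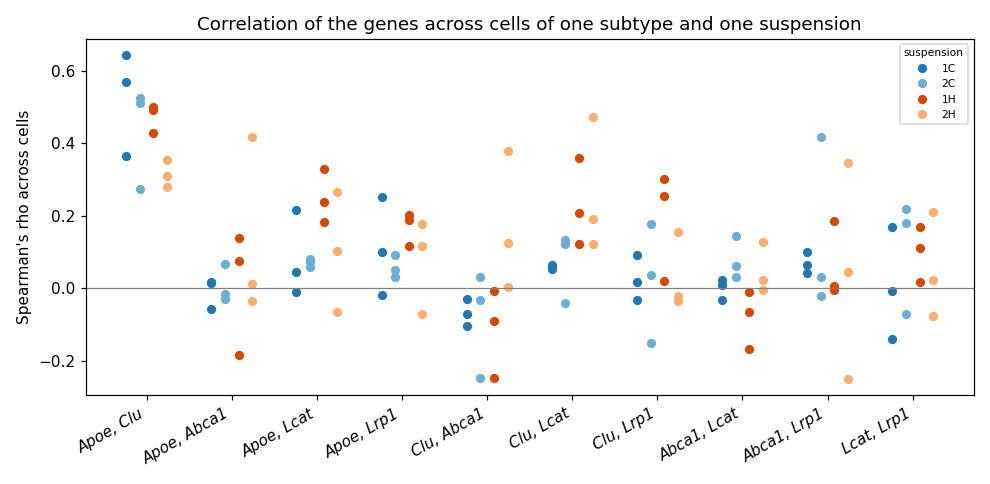
Spearman's correlation between pairs of genes across the cells of 1 subtype and 1 suspension (y axis), 1 point per set of at least 40 cells, coloured by suspension. The *Apoe* and *Clu* points all lie above 0, between 0.273 and 0.644. Every other pair has points on both sides of 0, most of those of *Clu* and *Lcat* lying above it.

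The wider lipoprotein system was followed through 50 further genes. In mural cells 6 of the 36 genes tested were lower than in astrocytes (11.8% of all genes were) and none higher. In endothelial cells 10 were lower (background 15.8%) and 1, *Pltp*, which encodes the phospholipid transfer protein, was higher (background 1.78%), at 2677 ± 322.9 CPM against 13.2 ± 10.2 in astrocytes (SD, n = 4; log2 difference 6.97 ± 1.15, adjusted p = 0.00942). Of all genes, none was called in endothelial cells without 1C or without 1H, nor in oligodendrocytic cells without 1C, 1H or 2H. With a suspension left out, at most 24 of all genes were lower in mural cells, against 1931 in all suspensions, and at most 1006 in microglia, against 6361. In microglia 18 were lower (background 38.8%) and 2 higher (1.5%). The higher ones were *Trem2*, a lipid-sensing receptor of microglia, at 1827 ± 510 CPM against 0.304 ± 0.410 (adjusted p = 0.0144), and *Mylip*, whose product degrades lipoprotein receptors, at 553 ± 460 against 2.38 ± 1.79 (0.0368). Those lower in microglia took in *Srebf1*, a regulator of lipid synthesis genes, which was 494 ± 61.4 CPM in astrocytes and listed at 0 in all 4 microglial sums (adjusted p = 0.0104), and *Cyp46a1*, which hydroxylates cholesterol, at 125 CPM against 0 (0.0282). None of the 36 was called in neuronal cells (background 0.293%) and 2, both lower, in oligodendrocytic cells (1.12%), although *Apod*, a lipocalin named as an apolipoprotein, stood at 3584 ± 766 CPM there against 25.9 ± 48.0 in astrocytes.

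Among astrocyte subtypes few of the same 50 genes were called. Between AST1 and AST2, 3 of 37 were higher in AST1 (background 3.34%) and none lower: *Lrp4*, a receptor of the same family as *Lrp1* (log2 difference 2.53 ± 0.32, adjusted p = 0.00682), *Abca5*, a transporter (4.48 ± 0.84, 0.0265), and *Pltp* (0.0434). *Lrp4* was 108.4 ± 23.4 CPM in AST1, 26.2 ± 19.2 in AST2 and 70.5 ± 10.4 in AST3. It and *Abca5* were also lower in AST2 than in AST3 (adjusted p = 0.0211 and 0.0384), the 2 of 37 called there (background 2.84%). None of these calls stood without 1C or without 2C. *Abca5* was 37.8 ± 18.2 CPM in AST1 (lowest sum 27.6) and 14.1 ± 16.2 in AST2. Its AST2 sums ran from 0 to 29.6 CPM and its AST3 sums from 16.7 to 41.8, so all these ranges overlapped. Both areas had equal weight in these differences, although hippocampal AST2 rested on sums of 10 and 22 cells. The *Abca5* differences were not tested in cortical sums alone. In hippocampal AST2, 3 of 37 (*Abca5*, *Abca7* and *Lrp4*) were lower than in cortical AST2 (background 4.01%), but the hippocampal sums held 10 and 22 cells, and without 1C or 2C no gene was called. In AST5, 6 of 37 were lower than in the other subtypes, a share close to the 16.6% of all genes, *Lrp1b*, *Nceh1* and *Vldlr* leading by fitted change and listed at 0 in all 3 sums. None was called in AST1, AST2, AST3 or AST4 against the other subtypes, or between areas in all astrocytes, AST1 or AST3.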

How the data were processed

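Per the labels, poly(A) RNA of single cells was sequenced from both fragment ends. The authors mapped reads to GRCm38.p5 with STAR (2.5.2b), and deposited raw gene counts from HTSeq per cell. These counts, 2030 per-cell files, were used. The table of the whole series was compared in 32 of its columns, and its other 1999 columns were not used. Strandedness of counting was not given in the sources used here. Cell types and subtypes are the study's own list, which covers 1982 of these cells.

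Cells were summed by type (at least 2 cells) or subtype (at least 5) and suspension. Sums were tested with edgeR (4.0.16; TMM, filterByExpr, quasi-likelihood F test, Benjamini-Hochberg over all genes tested), with brain area as covariate or, for AST1, AST2 and AST3, 1 mean per subtype and area. SE is the log2 fold change divided by the square root of F. Alternatives were DESeq2 (1.42.0), limma (3.58.1) on mean log2(CPM + 1), other scalings and filters, cells thinned to 50000 counts, replicate blocks and each suspension left out. Types of 1 suspension come from the same animals, so the suspension pairs them. The shared numbers 1 and 2 of cortex and hippocampus mark no common animal, and their deviations did not go together (r = 0.012 over 8808 genes). Genes named are the 6 members, up to 3 per direction of the fixed lipoprotein lists, and the 3 most like each member; *Abcg1*, below 10 CPM, had no such list, and *Apod* was named after its values were seen. Some genes that this rule names are not reported here. Members and lists were chosen with earlier results of these data known. The scripts were tested on simulated counts. Intervals and limits cover counting error only. Suspensions are the replicates, 2 per area. The p-values for types, subtypes and AST1 to AST3 rest on the spread among 21, 17 and 12 sums. These fits took the sums of 1 suspension as independent unless it was a replicate block. Only the area tests in all astrocytes and in mural cells rested on 4 sums, 1 per suspension.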

Additional observations from a re-analysis of the deposited data

Results flagged for a closer look

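In 12 of 40 groups of 4 suspensions tested, 1 suspension lay far from the other 3 by Dixon's test. The chance rate of about 1 group in 20 holds for normally distributed values and cannot be set against sparse sums. Where 3 suspensions were at 0, as for *Abca1* in mural cells and *Abcg1* in AST2 and AST3, any count in the other was flagged. In microglial cells the suspension apart was 2C, with *Apoe* at 10190 CPM against 180 to 887 and *Clu* at 5672 against 0.446 to 344.04. In mural cells *Clu* was 23.03 CPM in 1C against 0.203 to 0.616, and *Abca1* 1.36 in 2H against 0. In endothelial cells *Clu* was 136.6 CPM in 2H against 0 to 0.633, and *Abca1* 117.1 in 1C against 0 to 4.03. *Abca1* was 222.8 CPM in AST1 of 2C against 87.4 to 106.6, and 545 in AST2 of 1H against 81.8 to 136.3, where *Lrp1* was also apart, at 352.96 against 176.7 to 189.9. *Abcg1* was 2.56 CPM in all astrocytes of 2H against 1.18 to 1.41, and in 2C 1.40 in AST2 and 1.58 in AST3 against 0, each of these last from 1 cell.

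Cells that entered no comparison also carried the carriers' RNA. In the 15 cells without a type the median was 33129 CPM for *Apoe* and 12091 for *Clu*. In the 33 cells absent from the type list, all of 1C, it was 22750 (range 6.50 to 60649) and 8606 (0 to 30270).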

How the results depend on the processing

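Calls against astrocytes numbered 15, and 24 with DESeq2, 7 with at least 5 cells per sum (run for mural, endothelial and neuronal cells, with 9 of the 15), 9 with no filter on low counts, 9 with the suspension as replicate block, 14 to 18 with the other scalings, limma, thinning or the sums high in astrocyte markers left out and 1 to 9 with a suspension left out. The 10 subtype calls became 5 with total counts only, 6 with limma, 18 with the other subtypes weighted equally and 4 to 9 with a suspension left out. The 5 calls between AST1, AST2 and AST3 became 2 with limma and 0 to 6 with a suspension left out. Area calls rose from 0 to 7 with DESeq2, 2 on thinned cells and 1 with DESeq2 size factors, total counts only or limma, and were 0 to 1 with a suspension left out. The replicate number as replicate block, which pairs no animals, gave 2 (*Clu* in AST2 and AST3). The 0 interaction calls became 1 (*Clu*) with total counts only and stayed at 0 with a suspension left out. Among called values the sign changed for *Apoe* (0.00679) and *Clu* (0.0347) in AST5, both with total counts only. Of 440 recomputed values of single genes, 73.4% kept the side of the threshold, 24.8% lost the call and 6 gained it. Values called in neither fit were counted as kept even where their sign changed. The causes were not tested. Depth per cell was ample for *Apoe* and *Clu*; *Abcg1* in astrocytes and the small types rested on few cells. Counts over all genes moved by more than 1.5 times with DESeq2 in every comparison but microglial or mural cells against astrocytes, and in some comparisons with most other settings. Examples are neuronal cells (48 to 3875 with DESeq2, 3214 with limma), AST1 (7 to 1007 with the other subtypes weighted equally), AST3 (0 to 903 with that weighting), microglial cells (6606 to 1747 with no filter), the AST1 and AST2 comparison (675 to 51 when blocked by suspension) and endothelial cells (2885 to 0 without 1C).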
